A study of Mus musculus with 3 samples.

Results

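The 10 genes described here belong to the circadian clock: Dbp, Tef, Nr1d1, Nr1d2, Per1, Per2, Per3, Arntl, Npas2 and Nfil3. They are 10 of the 31058 genes in the deposited tables and were found by symbol, each matching a single Ensembl gene. The genes were chosen by measured values, since earlier sums over the same libraries had shown several of them apart between mice, so every difference between libraries given below is a description. No p-value is attached to any of them.

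Cells of mouse glomeruli, the filters of the kidney, were profiled by droplet RNA sequencing, which counts 3′ tags as unique molecular identifiers (UMIs). The 3 libraries came from 1 male mouse, 1 female mouse with a knockout of oestrogen receptor alpha (female ERaKO) and 1 female mouse. The male and the female had the genotype Pax2.rtTA;TetO.Cre;R26.Confetti, and the female ERaKO carried ERalphaKO in addition. All 3 mice were healthy, were on the C57Bl/6 background, were given doxycycline at 20 days and followed to an age of 90 days. Pax2.rtTA with TetO.Cre turns on Cre under doxycycline in cells that use the Pax2 driver and their descendants, and the labels tie the knockout to RPC, an abbreviation that they do not spell out. Each group is 1 mouse and 1 library, so how far mice of 1 group differ is unknown, and all intervals below cover counting error only. The labels do not give the time of day at which the mice were killed. A difference of that time, a difference of the animal and a difference of sex or genotype therefore cannot be told apart for genes that cycle over the day.

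After filtering, 3224 male, 2520 female ERaKO and 2828 female cells were kept. The library totals were 44585342 UMIs in male, 47522141 in female ERaKO and 44942380 in female. Barcodes above 25% mitochondrial UMIs made up 21.0% of the male, 34.0% of the female ERaKO and 17.7% of the female library. Between 4 and 8 cell barcodes occurred in both libraries of a pair. Cells were clustered and named from marker lists, and 7 classes had at least 30 cells in each library; all class names below mean "-like" in that sense. The podocyte list was near its own level in each library, with a sum of 29872 counts per 1000000 UMIs of the class (CPM) in male, 27868 CPM in female ERaKO and 27205 CPM in female podocytes, and all 12 markers had UMIs. Esr1, the gene of oestrogen receptor alpha, had 84 UMIs in the kept male cells, 125 in female ERaKO and 69 in female cells, of which podocytes held 2 in male, 3 in female ERaKO and 1 in female. A 3′ tag may lie outside the deleted part of Esr1, so these counts do not check the genotype.

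The mammalian clock is a feedback loop. ARNTL (also called BMAL1) pairs with CLOCK or with its relative NPAS2 and turns on genes through E-boxes, among them the Per genes, whose proteins repress that pair, and Nr1d1 and Nr1d2, whose proteins (REV-ERB alpha and beta) repress Arntl, Npas2 and Nfil3 through ROR elements. DBP and TEF are output activators that bind D-boxes, and NFIL3 represses through those same D-boxes. In mouse tissues, kidney included, Dbp and Nr1d1 peak during the day and Arntl and Npas2 near the opposite phase, so the level of such genes depends on when a tissue is taken.

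Promoter windows of 300 bases (250 before to 50 after each start site) were read from RefSeq for GRCm38.p6, and 9 of the 10 genes had one, with 12 windows in all; Per2 had none. The stretches below show where the letters of the 3 clock elements stand in these windows. The members are grouped in the text by what their proteins do, not by the elements in their own windows. The letters searched on both strands were CACGTG for the E-box, TTATGNAA for the D-box and TAGGTCA for the ROR element; none of the matches overlapped. Capitals mark the match, each stretch runs 5′ to 3′ along the gene's strand, and the Nfil3 match is on the opposite strand.
Tef, first start, E-box, chr15:81802526-81802571, plus strand: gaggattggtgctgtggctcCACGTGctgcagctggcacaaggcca
Tef, second start, E-box, chr15:81811256-81811301, plus strand: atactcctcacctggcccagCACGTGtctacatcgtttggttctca
Per1, E-box, chr11:69098763-69098808, plus strand: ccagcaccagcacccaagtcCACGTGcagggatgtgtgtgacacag
Per1, D-box, chr11:69098905-69098948, plus strand: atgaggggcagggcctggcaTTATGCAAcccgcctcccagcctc
Per3, D-box pair, chr4:151044796-151044890, minus strand: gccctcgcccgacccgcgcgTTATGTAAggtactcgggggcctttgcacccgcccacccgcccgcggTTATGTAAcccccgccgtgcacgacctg
Arntl, ROR element after the second start, chr7:113207524-113207553, plus strand: ttagggaaggcagaaagTAGGTCAgggacg
Nfil3, ROR element, chr13:52981040-52981071, minus strand: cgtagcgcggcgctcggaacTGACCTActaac

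E-box letters were in 3 of the 12 windows, D-box letters in 2 and ROR element letters in 2. Among all 32851 windows in the table, 7.15% held the E-box letters, 3.38% the D-box letters and 2.61% the ROR element letters. The windows of Dbp, Nr1d1, Nr1d2 and Npas2, the second window of Per1 and the first of Arntl held none of them, which says only that these letters are not in those windows. The matches are positions of letters and no measure of binding.

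In podocytes, the cells that wrap the glomerular capillaries, the D-box activators, the REV-ERB genes and Per3 were highest in the female library, and Arntl, Npas2 and Nfil3 were lowest in the female library. The sums rested on 1205 male podocytes with 11040512 UMIs, 810 female ERaKO podocytes with 7348839 and 1399 female podocytes with 16275619. Dbp had 17.7 CPM in male, 62.1 CPM in female ERaKO and 149.7 CPM in female podocytes. These are 195 UMIs in male, 456 in female ERaKO and 2436 in female cells, and no other member lay as far apart between male and female podocytes. The log2 ratio with 1 CPM added was −3.01 for male against female (95% interval without the added CPM −3.30 to −2.87) and −1.26 for female ERaKO against female (−1.42 to −1.13). With each podocyte thinned to 4000 UMIs, Dbp was found in 5.98% of male, 15.3% of female ERaKO and 32.0% of female podocytes; without thinning the shares were 12.0% in male, 25.1% in female ERaKO and 47.4% in female cells. Tef, the other D-box activator, had 46.6 CPM in male, 51.7 CPM in female ERaKO and 64.0 CPM in female podocytes. The order was that of Dbp, but the ratios were small, −0.45 (−0.61 to −0.31) for male and −0.30 (−0.48 to −0.14) for female ERaKO.

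The REV-ERB genes followed the same order of libraries. Nr1d1 had 40.8 CPM in male, 80.4 CPM in female ERaKO and 116.6 CPM in female podocytes, with log2 ratios against female of −1.49 (−1.67 to −1.37) in male and −0.53 (−0.67 to −0.40) in female ERaKO cells. Nr1d2 had 35.3 CPM in male, 46.3 CPM in female ERaKO and 70.5 CPM in female podocytes. Its ratios were −0.98 (−1.17 to −0.83) in male and −0.60 (−0.79 to −0.43) in female ERaKO cells. Of the Per genes, which encode repressors of the ARNTL pair, Per3 had 17.5 CPM in male, 14.4 CPM in female ERaKO and 39.9 CPM in female podocytes. Per3 thus had a slightly lower level in female ERaKO than in male cells, the reverse of Dbp, with log2 ratios against female of −1.41 (−1.78 to −1.17) in female ERaKO and −1.15 (−1.43 to −0.96) in male cells. Per2 was sparse, with 1.72 CPM (19 UMIs) in male, 2.04 CPM (15 UMIs) in female ERaKO and 4.73 CPM (77 UMIs) in female podocytes. Its ratios were −1.07 (−2.27 to −0.72) in male and −0.91 (−2.12 to −0.40) in female ERaKO cells. Per1, which responds to acute signals as well as to the clock, had 55.9 CPM in male, 48.9 CPM in female ERaKO and 58.1 CPM in female podocytes. Its ratios were −0.05 (−0.20 to 0.09) in male and −0.24 (−0.43 to −0.07) in female ERaKO cells, the smallest in absolute value of the 10 members in both.

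The activators of the loop and Nfil3 stood in the opposite order. Arntl had 30.4 CPM in male, 23.9 CPM in female ERaKO and 13.6 CPM in female podocytes, with log2 ratios against female of 1.10 (0.91 to 1.41) in male and 0.77 (0.52 to 1.10) in female ERaKO cells. Npas2 had 7.97 CPM in male, 7.62 CPM in female ERaKO and 4.98 CPM in female podocytes, and its ratios were 0.59 (0.23 to 1.13) in male and 0.53 (0.10 to 1.12) in female ERaKO cells. Nfil3 had 5.16 CPM in male, 3.40 CPM in female ERaKO and 1.23 CPM in female podocytes. Its ratios, 1.47 (1.31 to 2.88) in male and 0.98 (0.56 to 2.39) in female ERaKO cells, rest on 57 UMIs in male, 25 in female ERaKO and 20 in female cells. At such low levels the added CPM makes a ratio smaller.

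**Figure D1:**
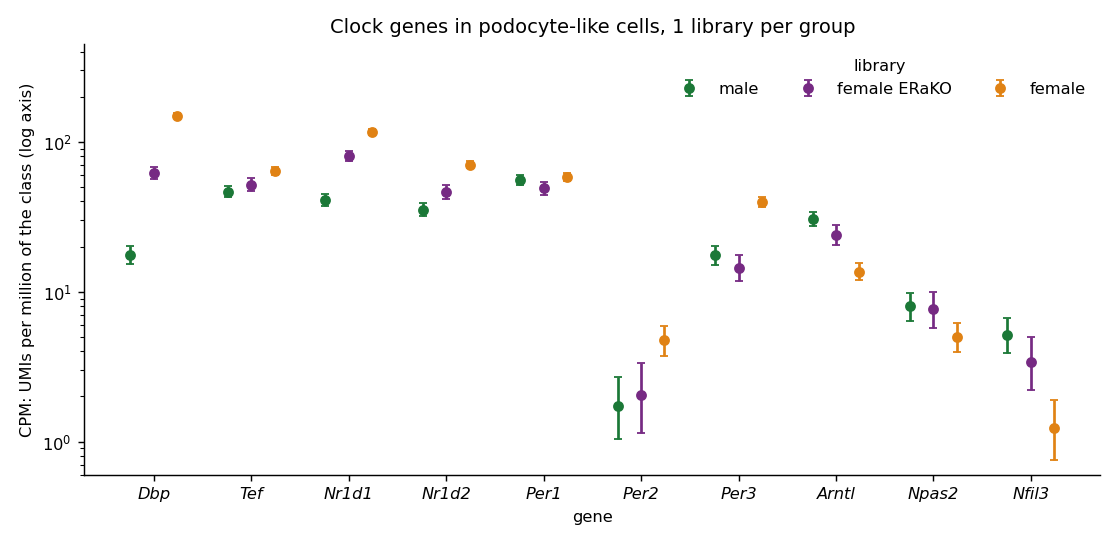
CPM (log axis) of the 10 genes in podocyte-like cells of the male, female ERaKO and female libraries, 1 point per library with its 95% Poisson interval. Dbp runs from 17.7 in male to 149.7 in female cells, Arntl and Nfil3 are highest in male cells, and the 3 points of Per1 lie between 48.9 and 58.1.

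Counted at a 1.5-fold difference and at least 20 summed UMIs, male podocytes were lower than female ones for 5 of the 10 genes (Dbp, Nr1d1, Nr1d2, Per2 and Per3), where 1.74% of all 11526 genes tested were lower. They were higher for 3 (Arntl, Npas2 and Nfil3), where 2.1% of all genes were higher. Female ERaKO podocytes were lower than female ones for 4 (Dbp, Nr1d2, Per2 and Per3; 3.51% of 11379 genes) and higher for 2 (Arntl and Nfil3; 2.83%). The median log2 ratio of the 10 genes was −0.71 in male and −0.42 in female ERaKO podocytes, beside 0.02 in male and −0.01 in female ERaKO podocytes over all genes tested. Since the genes were selected on these contrasts, nothing is read from the counts. The 2 comparisons share the female library, so their likeness is no separate result. Haemoglobin RNA also differed: the 5 red cell markers summed to 767.5 CPM in male, 632.3 CPM in female ERaKO and 8.48 CPM in female podocytes. Proximal tubule markers summed to 398.8 CPM in male, 520.4 CPM in female ERaKO and 254.6 CPM in female podocytes, and the part of either in the clock genes was not tested.

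Podocytes fell into 3 clusters, in all of which the libraries had 30 or more cells. The leading genes were Myl7 and Clic3 in cluster 0, Gas1 and Tdrd5 in cluster 1, and Pla2g7 and Angptl7 in cluster 6. The log2 ratio of Dbp in male against female cells was −3.08, −2.99 and −2.91 in clusters 0, 1 and 6. In female ERaKO against female cells it was −2.02, −1.01 and −0.76, so the size, but not the direction, differed by cluster. Arntl stood at 1.17, 0.91 and 1.47 in the male cells and at 1.26, 0.33 and 0.68 in the female ERaKO cells of these clusters. The female ERaKO intervals of Arntl included 0 in cluster 1 (−0.11 to 0.80) and in cluster 6 (−0.19 to 1.61). Per3 stood at −1.20, −1.04 and −1.45 in male and at −1.55, −1.34 and −1.28 in female ERaKO cells. For Nr1d1 the values were −1.79, −1.43 and −1.17 in male and −0.81, −0.52 and −0.15 in female ERaKO cells. The last of these had an interval that included 0 (−0.51 to 0.19).

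The order of the libraries could also be read without class names. Over the 14 clusters with at least 30 cells in each library, named or not, the female cells had the highest CPM of Dbp and of Nr1d2 in 14 of 14. They were highest for Tef, Nr1d1 and Per3 in 12 each, for Per1 in 11 and for Per2 in 8. The female cells had the lowest Arntl in 13 of 14 clusters, the lowest Nfil3 in 9 and the lowest Npas2 in 8. Summed over all kept cells, Dbp had 30.6 CPM in male, 60.5 CPM in female ERaKO and 124.3 CPM in female cells, and Arntl had 25.7 CPM in male, 21.9 CPM in female ERaKO and 15.3 CPM in female cells. Clusters of 1 library share that animal, so they do not count as repeats of the difference.

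The 7 classes differed in level within each library, and for some genes the same class led in all 3. Of these 7 classes, mesangial cells, the contractile support cells between the capillaries, had the highest Dbp, Nr1d1, Nr1d2 and Per3 in each library. Dbp stood at 151.8 CPM in male, 296.3 CPM in female ERaKO and 349.1 CPM in female mesangial cells. In the next class by mean, podocytes, the 3 values ended at 149.7 CPM, so the ranges did not overlap. That female podocyte value lay within counting error of the male mesangial one, which rests on 213 UMIs. Podocytes, parietal cells (41.5 to 142.2 CPM), endothelial cells (22.4 to 121.0 CPM), proximal tubule cells (27.9 to 65.6 CPM) and smooth muscle and renin cells (16.4 to 77.9 CPM) overlapped one another. Macrophages had the lowest Dbp, at 1.51 to 27.7 CPM.

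Nr1d1 ranged from 126.2 to 177.4 CPM in mesangial cells and Nr1d2 from 99.8 to 145.3 CPM, both above podocytes in each library. For Nr1d1, endothelial cells came next by mean (73.6 to 128.6 CPM), which overlaps the mesangial range, and macrophages came last (10.4 to 23.1 CPM). The mesangial range of Nr1d2 overlapped that of no other class, the highest value elsewhere being 96.4 CPM in female smooth muscle and renin cells. That value, on 120 UMIs, lay within counting error of the 99.8 CPM of male mesangial cells, on 140 UMIs. Female cells of smooth muscle and renin cluster 13 had 105.9 CPM, on 21 UMIs. Tef was highest in proximal tubule cells (64.3 to 115.0 CPM) and mesangial cells (60.6 to 111.3 CPM), whose ranges overlapped nearly in full. Per3 spanned 17.8 CPM in male, 47.5 CPM in female ERaKO and 51.0 CPM in female mesangial cells, and overlapped every class but smooth muscle and renin cells (7.10 to 16.9 CPM) and macrophages (2.60 to 10.8 CPM). Single clusters inside the proximal tubule class went above the mesangial values. Cluster 21 had 228.9 CPM of Nr1d1 in female ERaKO cells, on 109 UMIs, but 138.8 CPM in female cells. Its Per3 was 48.3 CPM in female ERaKO and 69.4 CPM in female cells. In male cells of cluster 16 Per3 was 28.1 CPM, on 35 UMIs.

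Per1 and Per2 had different leading classes. Per1 was highest in macrophages in each library (60.5 CPM in male, 62.5 CPM in female ERaKO, 67.7 CPM in female cells), then in podocytes (48.9 to 58.1 CPM) and parietal cells (44.2 to 52.4 CPM). The macrophage values rest on 40 UMIs in male, 24 in female ERaKO and 44 in female cells. The podocyte values lay within their counting error. Per2 was highest in parietal epithelial cells, which line the capsule of the glomerulus, at 12.2 CPM in male, 19.0 CPM in female ERaKO and 24.3 CPM in female cells. Podocytes were among the lowest classes for Per2, at 1.72 to 4.73 CPM. The parietal and podocyte ranges did not overlap, while the parietal range overlapped those of proximal tubule (3.05 to 19.4 CPM) and mesangial cells (5.66 to 12.8 CPM).

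Arntl was highest in endothelial cells in each library, at 37.3 CPM in male, 36.5 CPM in female ERaKO and 22.8 CPM in female cells, and podocytes (13.6 to 30.4 CPM) overlapped them. Mesangial cells had 13 Arntl UMIs in male, 7 in female ERaKO and 0 in female cells. The count of 0 among 529928 UMIs allows up to 5.66 CPM. The interval of the male mesangial cells, at 9.27 CPM (4.93 to 15.8), reached below that limit, and the female ERaKO cells, at 4.27 CPM, were below it. Npas2, the alternative partner of ARNTL, was distributed otherwise. It had 8.74 CPM in male, 7.31 CPM in female ERaKO and 12.8 CPM in female smooth muscle and renin cells and 4.98 to 7.97 CPM in podocytes. Endothelial cells, where Arntl was highest, had 1 Npas2 UMI in male (0.257 CPM), 1 in female ERaKO (0.338 CPM) and 3 in female cells (0.719 CPM), and macrophages had 0 in each library.

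Nfil3, which also acts in immune cells, was highest in macrophages, with 247.8 CPM in male, 138.0 CPM in female ERaKO and 169.2 CPM in female cells. The highest value in any other class was 37.2 CPM, in male parietal cells. Mesangial cells and podocytes were at the low end, with 1.89 to 3.66 CPM and 1.23 to 5.16 CPM. Macrophage sums rest on 91 male, 53 female ERaKO and 70 female cells.

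**Figure D2:**
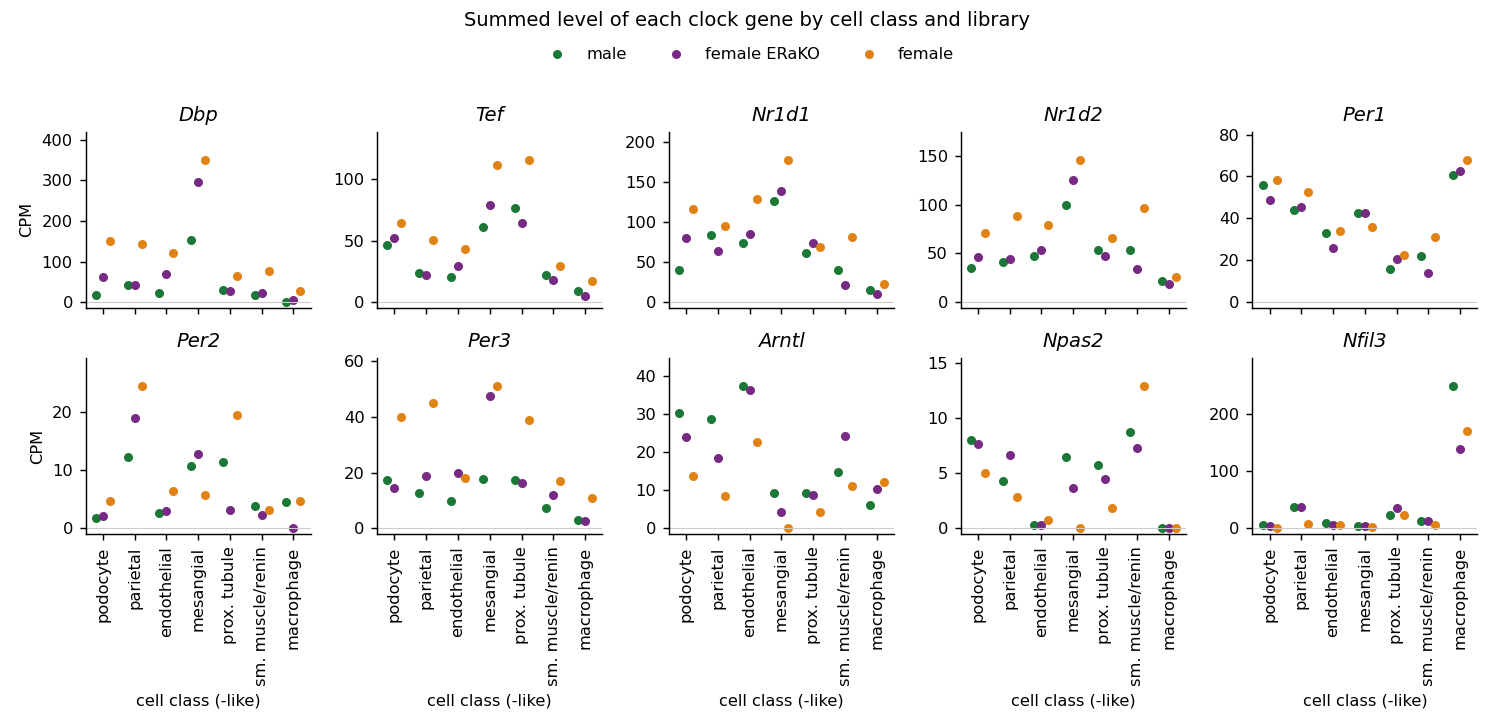
CPM of each gene (linear axes, 1 panel per gene) in 7 cell classes, with 1 point per library. Mesangial-like cells lead for Dbp, Nr1d1 and Nr1d2 (151.8 to 349.1 for Dbp), macrophage-like cells lead for Nfil3 (138.0 to 247.8), and Npas2 is at 0 in macrophage-like cells.

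The differences between libraries were next read class by class for male against female. In endothelial cells, 6 of the 9 genes with at least 20 UMIs were lower in the male (3.95% of all genes) and 2, Arntl and Nfil3, were higher (3.78%). Dbp had 22.4 CPM in male and 121.0 CPM in female endothelial cells, a log2 ratio of −2.38 (−2.78 to −2.10). By cluster the ratio was −2.66 (−3.15 to −2.31) in cluster 2, led by Kdr and Gpihbp1, −1.12 (−2.09 to −0.30) in cluster 9, led by Calca and Fabp4, and −2.27 (−3.26 to −1.44) in cluster 14, led by Esm1 and Igfbp3. An unnamed cluster of endothelial markers stood outside the class. With it added, 4 of 9 were lower in the male (Dbp, Nr1d1, Nr1d2 and Per2; 3.19% of all genes) and 0 higher (2.89%). Dbp then stood at −1.96, and Tef (−0.56), Per3 (−0.44), Arntl (0.41) and Nfil3 (0.43) lay within 1.5-fold. Red cell markers in endothelial cells summed to 1697 CPM in male, 2985 CPM in female ERaKO and 60.6 CPM in female cells, and their part was not tested.

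In parietal cells, 5 of 9 were lower in the male (5.44%) and 2 higher (11%). Nfil3 had the highest ratio there, with 37.2 CPM in male and 7.48 CPM in female cells (2.17, 1.26 to 3.58), and Arntl stood at 1.66 (0.74 to 2.98). Markers of other cells also differed in the parietal class. Those of the descending and thin limb summed to 771.5 CPM in male, 135.7 CPM in female ERaKO and 106.6 CPM in female cells. Smooth muscle and renin markers summed to 1788 CPM in male, 4264 CPM in female ERaKO and 2225 CPM in female cells. The part of either in the clock genes was not tested. Mesangial cells had 3 of 6 lower (9.54%), Dbp, Tef and Per3, and 0 higher (9.47%). Dbp, with 151.8 CPM in male and 349.1 CPM in female mesangial cells, stood at −1.20 (−1.49 to −0.91). Endothelial markers in these mesangial cells summed to 2050 CPM in male, 4032 CPM in female ERaKO and 4319 CPM in female cells, and their part was not tested.

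In proximal tubule cells, 4 of the 10 genes were lower in the male (8.38%) and 2, Arntl and Npas2, were higher (12.3%). Arntl stood at 0.92 (0.05 to 2.17), on 29 male and 12 female UMIs. Npas2 stood at 1.24 (0.16 to 3.42), on 18 male and 5 female UMIs. Tef had 76.1 CPM in male and 115.0 CPM in female cells (−0.59, −0.85 to −0.35), and Nr1d1 had 61.8 CPM in male and 69.2 CPM in female cells (−0.16, −0.46 to 0.13). The proximal tubule class is held by different clusters in these libraries: 171 of the 172 male cells were in clusters 12 and 16, and 82 of the 123 female cells in clusters 15 and 21. In cluster 12, which all 3 libraries shared, Dbp had 19.1 CPM in male, 18.5 CPM in female ERaKO and 47.0 CPM in female cells. The median mitochondrial share of the class was 8.92% in male, 9.92% in female ERaKO and 14.4% in female cells. Its proximal tubule markers summed to 32295 CPM in male, 51650 CPM in female ERaKO and 63969 CPM in female cells. Red cell markers summed to 6.66 CPM in male, 1255 CPM in female ERaKO and 6.59 CPM in female cells of the class, and the part of these in the clock genes was not tested. In smooth muscle and renin cells, 4 of 9 were lower in the male (7.76%) and 1, Nfil3, was higher (7.25%). Nfil3 stood at 1.04, on 23 male and 7 female UMIs, and its interval included 0 (−0.11 to 2.63). Dbp had 16.4 CPM in male and 77.9 CPM in female cells of that class, a log2 ratio of −2.18 (−2.89 to −1.64). Its clusters were not equally filled: cluster 8, led by Rergl and Rgs5, held 121 of the 286 male and 95 of the 158 female cells. The Dbp ratio was −1.06 (−2.06 to −0.19) in cluster 8 and −2.66 (−3.74 to −1.80) in cluster 10, led by Ren1 and Akr1b7. Cluster 13, led by Cnn1 and Myh11, had 1 Dbp UMI in 67 male cells and 22 in 28 female cells. Nfil3 stood at −0.32 (−2.41 to 1.62) in cluster 8 and 2.27 (−0.17 to 8.01) in cluster 10. In cluster 13 Nfil3 had 6 UMIs in male and 0 in female cells.

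For female ERaKO against female, the number of lower members ranged from 0 to 6 over the same classes. Parietal cells had 4 of 10 genes lower (6.48% of all genes) and 3 higher (10.2%), with Dbp at 41.5 CPM in female ERaKO and 142.2 CPM in female cells (−1.75, −2.10 to −1.45). Nfil3 stood there at 2.16 (1.29 to 3.54). In endothelial cells 2 of 9, Dbp and Per2, were lower (4.53%) and 1, Arntl, was higher (7%). With the unnamed cluster of endothelial markers added, 4 of 9 were lower (Dbp, Nr1d1, Nr1d2 and Per2; 4.11%) and 0 higher (4.74%), with Arntl at 0.58, just within 1.5-fold. In mesangial cells 0 of 7 were lower (7.93%) and 1, Per2, was higher (11.2%), on 21 UMIs in female ERaKO and 3 in female cells. Dbp had 296.3 CPM in female ERaKO and 349.1 CPM in female mesangial cells (−0.24, −0.48 to 0.02), so that Dbp, at −1.26 in podocytes, lay within 1.5-fold there.

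Proximal tubule cells of the female ERaKO had 4 of 10 genes lower (6.6%) and 3 higher (8.05%). Per2 had the lowest ratio, with 3.05 CPM in female ERaKO and 19.4 CPM in female cells (−2.33, −3.60 to −1.82), on 15 UMIs in female ERaKO and 53 in female cells, while male proximal tubule cells had 11.4 CPM. Within cluster 12, Arntl stood at 0.67 (−0.29 to 1.85), Npas2 at 0.84 (−0.65 to 3.05) and Nfil3 at 0.52 (−0.05 to 1.14). Smooth muscle and renin cells had 6 of 9 lower (10.9%) and 2 higher (7.27%). Nr1d1 had 21.4 CPM in female ERaKO and 81.9 CPM in female cells of that class (−1.89, −2.52 to −1.39), and Per1 had 14.1 CPM in female ERaKO and 31.3 CPM in female cells (−1.10, −1.94 to −0.40). It was the 1 class of the 6 in which Per1 passed 1.5-fold. Its cluster 8 held 83 of the 250 female ERaKO and 95 of the 158 female cells. Per1 stood at −1.30 (−2.62 to −0.24) in cluster 8 and −0.86 (−2.36 to 0.61) in cluster 10. In cluster 13 it stood at 0.35, on 5 UMIs in female ERaKO and 2 in female cells. Smooth muscle and renin markers of the class summed to 114668 CPM in female ERaKO and 59436 CPM in female cells. In the class, 11 of 13 immediate early genes, which follow acute stimuli and tissue dissociation, were lower (median −1.22, beside −0.06 over all genes). Of the glucocorticoid-responsive genes, 6 of 9 were lower and 0 of 9 had a ratio above 0 (median −0.86). The part of any of these in Per1 was not tested.

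**Figure D3:**
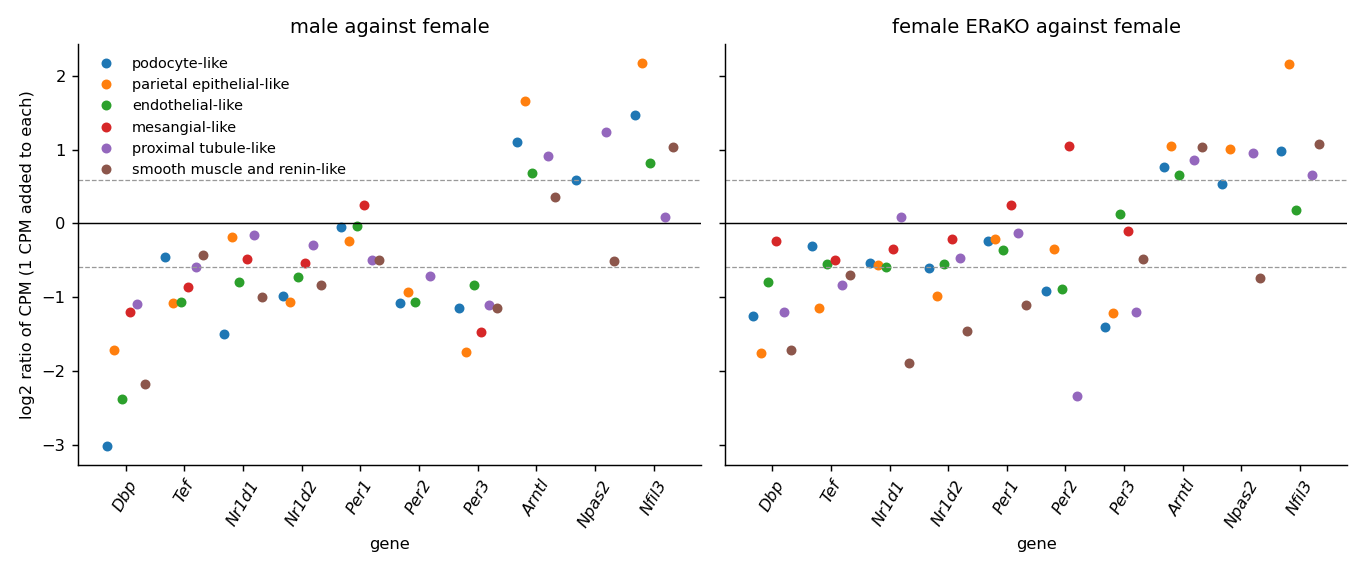
Log2 ratio of CPM, 1 CPM added to each, for male against female (left) and female ERaKO against female (right) in 6 cell classes, for genes with at least 20 summed UMIs; dashed lines mark 1.5-fold. Dbp, Tef and Nr1d2 lie below 0 in all 6 classes of both panels, Arntl lies above 0 wherever shown, and Per1 lies within 1.5-fold except in smooth muscle and renin-like cells on the right (−1.10).

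Phase relations were read as the ratio of 2 genes in the same cells of the same library, which needs no scaling between libraries. The size of such a ratio depends on how well each gene is captured, so only its place between libraries and classes was read. In podocytes, the log2 of Dbp counts over Arntl counts was −0.78 in male (−1.05 to −0.53), 1.37 in female ERaKO (1.12 to 1.63) and 3.46 in female cells (3.26 to 3.66). Male podocytes thus had fewer Dbp than Arntl UMIs, 195 against 336, and female podocytes had 2436 Dbp and 222 Arntl UMIs. In endothelial cells the values were −0.74 in male (−1.14 to −0.34), 0.93 in female ERaKO (0.59 to 1.28) and 2.41 in female cells (2.09 to 2.74). The value of the female ERaKO endothelial cells was 0.21, and that of the female ones 1.63, with an unnamed cluster of endothelial markers added, an alternative chosen after the data were seen.

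Parietal cells stood at 0.57 in male (0.05 to 1.09), 1.17 in female ERaKO (0.77 to 1.57) and 4.08 in female cells (3.12 to 5.23). Smooth muscle and renin cells stood at 0.15 in male (−0.65 to 0.96), −0.07 in female ERaKO (−0.72 to 0.58) and 2.79 in female cells (1.98 to 3.72). In both classes the male and female ERaKO intervals overlapped, while the female interval lay above them. Proximal tubule cells stood at 1.71 in male, 1.67 in female ERaKO and 3.90 in female cells. These rest on 29 Arntl UMIs in male, 43 in female ERaKO and 12 in female cells. They depended on filters, thinning and naming of the cells, reaching 2.58 in male, 4.52 in female ERaKO and 7.07 in female cells under other settings. Mesangial cells had the highest ratios, 4.03 in male (3.23 to 4.97) and 6.12 in female ERaKO cells (5.06 to 7.44). Female mesangial cells had 185 Dbp and 0 Arntl UMIs, a ratio of at least 61.7 or 5.95 on the log2 scale, taken at the limit of 3 UMIs.

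**Figure D4:**
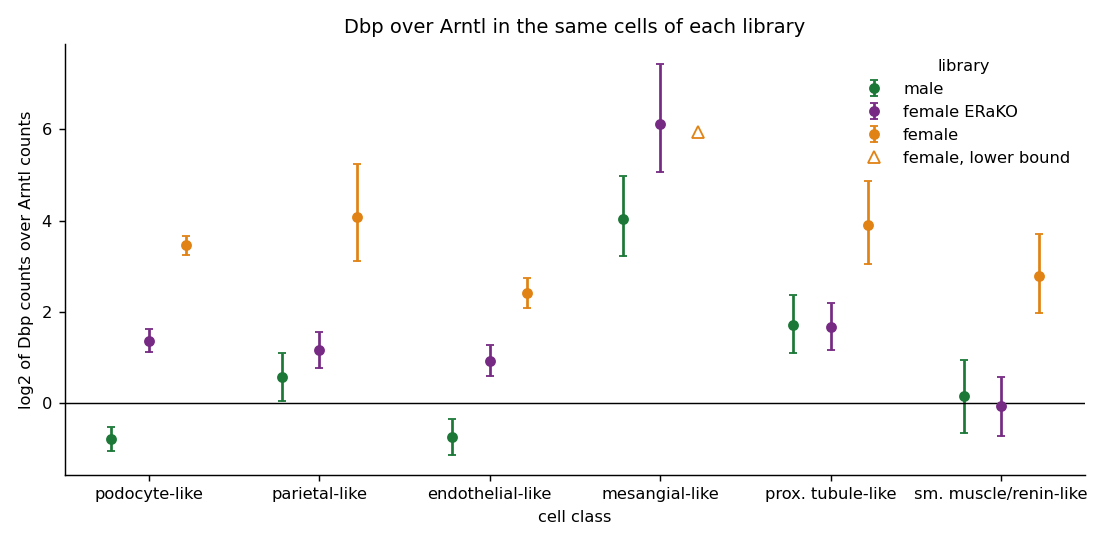
Log2 of Dbp UMIs over Arntl UMIs in 6 cell classes, with 1 point per library and its 95% interval of counting error. The open triangle, labelled lower bound, is the female mesangial-like value with 3 UMIs taken for Arntl, which had 0 UMIs. The exact interval there begins lower, at 5.63. The female point lies highest in 5 classes, at 3.46 in podocyte-like cells against −0.78 in male and 1.37 in female ERaKO cells.

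Other pairs of genes were read in podocytes in the same way. Nr1d1 over Arntl stood at 0.42 in male (0.21 to 0.63), 1.75 in female ERaKO (1.5 to 2.0) and 3.10 in female podocytes (2.89 to 3.30). Dbp over Nfil3, an activator and a repressor of the same D-boxes, stood at 1.77 in male (1.34 to 2.23), 4.19 in female ERaKO (3.61 to 4.83) and 6.93 in female podocytes (6.30 to 7.64). Per3 over Arntl stood at −0.80 in male (−1.06 to −0.54), −0.73 in female ERaKO (−1.09 to −0.38) and 1.55 in female podocytes (1.33 to 1.78). By Dbp the female ERaKO podocytes thus lay between the other libraries, and by Per3 they lay beside the male ones. Per1 over Per2 stood at 5.02 in male (4.37 to 5.76), 4.58 in female ERaKO (3.84 to 5.43) and 3.62 in female podocytes (3.28 to 3.97). It was lowest in the female podocytes, and the female ERaKO interval overlapped both others. In macrophages, where Nfil3 was highest, Dbp over Nfil3 was −7.36 in male, on 1 Dbp UMI (−12.7 to −4.86), −4.73 in female ERaKO (−7.81 to −2.80) and −2.61 in female cells (−3.42 to −1.88).

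Further genes of the clock were read from a list of 17. In male against female podocytes, 15 had enough UMIs, 2 were lower (1.74% of all genes) and 1 was higher (2.1%), with a median of −0.04. Bhlhe41 (DEC2), a repressor of E-box genes, had 5.07 CPM in male, 9.12 CPM in female ERaKO and 19.5 CPM in female podocytes. Hlf, another D-box activator beside Dbp and Tef, had 5.16 CPM in male, 5.99 CPM in female ERaKO and 12.4 CPM in female podocytes. Both stood in the order of Dbp, with log2 ratios against female of −1.75 for Bhlhe41 and −1.12 for Hlf in male, and −1.02 for Bhlhe41 and −0.94 for Hlf in female ERaKO cells. Cry1, a repressor that peaks late, was higher, with 18.4 CPM in male, 13.2 CPM in female ERaKO and 7.5 CPM in female podocytes (log2 ratio 1.19 in male and 0.74 in female ERaKO cells). Clock, whose RNA cycles little in many mouse tissues, had 105.2 CPM in male, 93.2 CPM in female ERaKO and 92.5 CPM in female podocytes (0.18 in male and 0.01 in female ERaKO cells). In female ERaKO against female podocytes, 2 of 15 were lower (3.51% of all genes) and 2 higher (2.83%), with a median of 0.04.

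Hlf and Bhlhe41 were also followed in other classes. Hlf was lower than in the female library in mesangial cells, with 92.0 CPM in male, 127.4 CPM in female ERaKO and 162.3 CPM in female cells. Proximal tubule cells had 79.2 CPM of Hlf in male, 72.4 CPM in female ERaKO and 114.3 CPM in female cells. Bhlhe41 had 13.8 CPM in male, 13.5 CPM in female ERaKO and 33.7 CPM in female parietal cells. Its proximal tubule levels lay close together, at 9.19 CPM in male, 9.77 CPM in female ERaKO and 10.6 CPM in female cells.

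A list of 16 clock-controlled output genes was read beside these. In podocytes 13 had enough UMIs, of which 2 were higher (2.1% of all genes) and 2 lower (1.74%) in male cells (median 0.06). In female ERaKO podocytes 2 were higher (2.83%) and 2 lower (3.51%), with a median of −0.27. Cdkn1a, a cell cycle inhibitor that also responds to stress, had 9.51 CPM in male, 4.76 CPM in female ERaKO and 2.52 CPM in female podocytes. Nampt, an enzyme of NAD synthesis under clock control in liver, had 104.2 CPM in male, 75.8 CPM in female ERaKO and 99.8 CPM in female podocytes.

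Per1 and Nfil3 also answer to glucocorticoids and to acute stimuli, so lists of both kinds were read beside them. Of 11 glucocorticoid-responsive genes, 2 were higher (2.1% of all genes) and 2 lower (1.74%) in male podocytes (median −0.33), and 3 were higher (2.83%) and 3 lower (3.51%) in female ERaKO podocytes (median 0.02). Fkbp5, a chaperone partner of the glucocorticoid receptor and a target of it, had 14 CPM in male, 5.85 CPM in female ERaKO and 20.5 CPM in female podocytes. In endothelial cells Fkbp5 had 33.7 CPM in male, 5.07 CPM in female ERaKO and 26.4 CPM in female cells. In parietal cells 7 of these 11 genes were lower in the female ERaKO (6.48% of all genes; median −0.70). Of the immediate early genes, 6 of 13 were higher and 0 lower in podocytes of the male (2.1% of all genes higher; median 0.58) and likewise in those of the female ERaKO (2.83%; median 0.50), while Per1 stayed within 1.5-fold. In parietal cells, where Nfil3 had its highest ratio, 7 of 14 were higher in the male (11%), and 14 of 14 had a ratio above 0 (median 0.57). Parietal cells of the female ERaKO had 3 of 14 higher (10.2%; median 0.20), beside Nfil3 at 2.16. In mesangial cells 7 of 13 were higher in the female ERaKO (11.2%; median 0.62). The part of these genes in the levels of Per1 and Nfil3 was not tested.

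Likeness to Dbp and to Arntl was measured over 21 points, 7 classes in each of 3 libraries, after the mean of each class was subtracted. The points share libraries, depth and cells, so the correlations are descriptions. With the class means removed, only differences between libraries remain. The members were chosen on such differences, so nothing is read from how they correlate with one another. Among 4378 genes at or above 20 CPM in at least 1 library of every planned class, those most like Dbp included Gstp1 (Pearson r 0.88), Unc50 (0.86), Atp5k (0.85) and Ndufa3 (0.85). The 5 most like Arntl were Gspt1 (0.90), Set (0.89), Nemf (0.85), Srp72 (0.85) and Atic (0.83). Of the members, Per3 was most like Dbp (0.83), followed by Nr1d2 (0.79), Tef (0.78) and Nr1d1 (0.74), and Nfil3 ran opposite to it (−0.75). Arntl was most like Npas2 (0.77) and then Nfil3 (0.59), and its correlation with Dbp was −0.40. Each point had equal weight, although some were near the floor. Arntl had 13 UMIs in male, 7 in female ERaKO and 0 in female mesangial cells. Npas2 had 9 UMIs in male, 6 in female ERaKO and 0 in female mesangial cells, and 0 in macrophages of each library. Per1 and Per2 had weak correlations with Dbp, 0.35 and 0.37.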

How the data were processed

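The authors deposited raw UMI counts per gene and cell for 3 libraries, in barcode lists whose filter is not given in the sources used here. The mm10 genome, STAR 2.7.5a and Cell Ranger 6.1.2 are named per the submitters' processing notes. The members and gene lists were chosen with earlier results of these data known.

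Barcodes under 500 genes or above 25% mitochondrial UMIs were dropped. Doublets were scored by Scrublet in scanpy 1.11.5; its automatic threshold called 93 male and 149 female ERaKO cells but 4 of 2900 female cells, so 1 score limit of 0.2 was set for all libraries after this was seen, which removed 109 male, 93 female ERaKO and 72 female cells. Counts scaled to 10000 UMIs per cell were log-transformed, reduced to 30 principal components of 2000 variable genes without sex-linked and mitochondrial genes, and clustered (leidenalg 0.10.2, resolution 1, 15 neighbours). A cluster took the name of the best of 18 marker lists at a mean log2 score of at least 1, a lead of 0.75 over the next list, at least 3 markers 2-fold up and no more markers of another class than its own among its 10 top genes. These limits were settled with the clusters in view and left 10.6% of male, 11.3% of female ERaKO and 11.0% of female cells unnamed; an unnamed cluster with endothelial markers held 6.64% of male, 7.38% of female ERaKO and 6.72% of female cells.

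Raw counts were summed per class and library and scaled to CPM. Log2 ratios had 1 CPM added. Intervals of 95% are exact Poisson, Clopper-Pearson or conditional intervals without the added CPM. Their code was run on simulated Poisson counts, which cannot show spread beyond counting error. A count of 0 is given the limit of 3 UMIs. With 1 library per group there was no test. The text names all 10 members, the lists by count and the 5 genes most correlated with Dbp and Arntl, of which 1 is not reported here; other list genes named were picked after their values were seen. Ribosomal, mitochondrial, haemoglobin, predicted and sex-linked genes were left out of the likeness search. Gene windows came from RefSeq. Further tools were matplotlib 3.10.9, scikit-learn 1.9.0, igraph 0.11.9, pandas 2.3.3, scipy 1.17.1, numpy 2.4.6 and Python 3.11.15. Pseudocounts, scalings, thinning, filters and cell naming were varied.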

Additional observations from a re-analysis of the deposited data

How the results depend on the processing

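No paired analysis was possible because each group is 1 library. Of the 56 member differences past 1.5-fold in the 5 planned classes, the direction was kept in 56 with 5 or 0.1 CPM added, TMM or median-of-ratios scaling, the mean of per-cell CPM, doublets kept and resolution 0.5, in 55 with cells named one by one and in 54 with thinning or with each library clustered alone. With a 10% mitochondrial limit 43 had a value, as some classes then held under 30 cells, and all 43 kept their direction. The reversals were Npas2 in proximal tubule cells (thinned, −0.37 in male and −0.10 in female ERaKO; cell by cell, −0.13 in female ERaKO) and, with each library clustered alone, Nfil3 in male endothelial cells (−0.23) and Arntl in female ERaKO proximal tubule cells (−0.38); the cause was not tested. The count of members apart in female ERaKO podocytes was 6, but 3 with 5 CPM added and 2 at 2-fold, since a larger pseudocount or limit leaves fewer past it. Past 1.5-fold, 42 of the 56 remained with 5 CPM added, 46 with each library clustered alone and 47 with doublets kept. With cells named one by one 48 remained, and 49 with thinning or with resolution 0.5. The mean of per-cell CPM left 53, either scaling 55 and 0.1 CPM added 56. With the 10% mitochondrial limit 40 of the 43 remained. With the unnamed cluster of endothelial markers added, an alternative chosen after the data were seen, all 11 endothelial differences kept their direction, but 6 remained past 1.5-fold. The sparse genes Per2, Npas2 and Nfil3 and the 51 female mesangial cells limit what depth can show.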
